A study of Mus musculus with 46 samples.

Results

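The genes examined here are 34 genes of protein folding in the endoplasmic reticulum (ER) and of the unfolded protein response, chosen by name from the 53465 genes of a deposited count table. All 34 were found in the table. They were read by role as 11 chaperones and chaperone partners, 7 disulfide isomerases, 7 genes of ER-associated degradation, 3 stress sensors or their transcription factor, and 6 genes of protein translocation and export. Their messenger RNA was sequenced in 3 tissues (liver, kidney and cerebellum) taken at postnatal day 23 from C57BL/6 mice. Every animal had the P195A allele of Adar, which encodes the RNA editing enzyme ADAR1. In p150-negative animals (8, genotype P195A_p150neg), as the series' notation is read here, the interferon-inducible p150 isoform does not come from the other allele, and in p150-positive animals (8, genotype P195A_p150pos) it does. The labels do not spell out the alleles, and no group lacks P195A. They give neither sex nor litter.

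Of 46 libraries, 5 that held RNA of another organ were left out. The 41 used came from liver (7 p150-negative and 7 p150-positive), kidney (5 and 7) and cerebellum (8 and 7). In each of the 41, genes that mark the labelled tissue summed to at least 58.375% of that tissue's median, and in the 5 left out to at most 0.808%. Total counts (M, units of 1000000) in liver were 0.53 to 3.79 M for p150-negative and 1.68 to 4.3 M for p150-positive animals, in kidney 0.27 to 3.5 M and 1.3 to 4.88 M, and in cerebellum 0.94 to 5.47 M and 2.9 to 6.24 M. The shallowest library of each tissue was p150-negative: animal 16 in liver, animal 3 in kidney and animal 11 in cerebellum. Levels are given in CPM, counts per 1000000 counts of the library. Traces of other organs remained in libraries that were used. The p150-positive kidney of animal 10 had liver markers of 531.8 CPM, against a median of 37.3 CPM in p150-positive kidneys. Exocrine pancreas markers without Cela1 reached 96.2 CPM in p150-positive and 8.0 CPM in p150-negative kidneys. Their part in the kidney values was not tested. These are whole-tissue samples, in which fewer cells of a type and less RNA per cell cannot be told apart.

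As background, secreted and membrane proteins enter the ER unfolded, where chaperones such as BiP (Hspa5) and GRP94 (Hsp90b1) hold them, disulfide isomerases pair their cysteines, and the HRD1 ligase complex sends failures to the proteasome. When unfolded protein accumulates, IRE1 (Ern1) splices Xbp1 mRNA and ATF6 is cut at the Golgi, and the resulting transcription factors activate most of the other genes considered here. PERK (Eif2ak3) acts in parallel by slowing translation and raising ATF4 and CHOP (Ddit3). Hepatocytes, which secrete plasma proteins, are rich in this machinery. Gene counts show neither Xbp1 splicing nor ATF6 cleavage nor the activity of PERK.

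The DNA elements through which XBP1 and ATF6 act are short, and several are visible upstream of these genes. The stretches below are examples that carry the ER stress response element (ERSE, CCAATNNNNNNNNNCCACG) or its variant ERSE-II (ATTGGNCCACG). Of their genes, only Creld2 (liver) and Pdia6 (cerebellum) passed the test described below in any tissue. They come from RefSeq on GRCm38.p6, read 5′ to 3′ along the gene's strand and end at the base before RefSeq's start, which can differ from starts in other annotations. Capitals mark the element, which in Creld2 and in the copy of Hsp90b1 nearer the start lies on the opposite strand. In order, the stretches are chr2:34772005-34772089 (plus strand), chr10:86705445-86705676 (minus), chr11:50325674-50325838 (minus), chr15:88819500-88819645 (plus), chr12:17266471-17266588 (plus) and chr8:94386357-94386428 (plus).
Hspa5: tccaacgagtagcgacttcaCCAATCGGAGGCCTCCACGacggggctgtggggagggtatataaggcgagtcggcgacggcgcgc
Hsp90b1: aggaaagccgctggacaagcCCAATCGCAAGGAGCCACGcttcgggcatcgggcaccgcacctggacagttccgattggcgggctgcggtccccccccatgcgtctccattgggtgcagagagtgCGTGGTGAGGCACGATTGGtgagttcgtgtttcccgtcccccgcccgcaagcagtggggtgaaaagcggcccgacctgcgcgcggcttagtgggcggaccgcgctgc
Canx: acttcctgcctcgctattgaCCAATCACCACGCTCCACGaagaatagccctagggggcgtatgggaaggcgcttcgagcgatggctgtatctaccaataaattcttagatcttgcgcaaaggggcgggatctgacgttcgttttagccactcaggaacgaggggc
Creld2: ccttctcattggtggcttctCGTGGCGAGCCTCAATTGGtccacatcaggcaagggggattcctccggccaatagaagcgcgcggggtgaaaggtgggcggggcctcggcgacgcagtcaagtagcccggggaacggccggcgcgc
Pdia6: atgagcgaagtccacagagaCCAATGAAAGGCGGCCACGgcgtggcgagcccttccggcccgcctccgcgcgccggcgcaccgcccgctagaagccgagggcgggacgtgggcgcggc
Herpud1: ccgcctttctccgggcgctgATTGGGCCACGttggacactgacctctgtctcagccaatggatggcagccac

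RefSeq held a start window, 250 bases before to 50 after the start, for 28 of the 34 genes. Both strands were searched. ERSE stood in 9 of the 28 (32.1%), namely Hspa5, Hsp90b1, Calr, Canx, Creld2, Dnajc3, Pdia6, Syvn1 and Derl3, against 39 of 32851 windows in all (0.12%). ERSE-II stood in Herpud1 and Dnajb11, against 12 windows in all, and the XBP1 element UPRE (TGACGTGG) in Txndc5, Txndc11 and Sec24d, against 222 (0.68%). Hspa5 held its match 65 to 47 bases before the start, and Hsp90b1 held a pair, at 212 to 194 and at 107 to 89 bases before. Of the genes called lower below, Derl2 and Pdia4 had windows with none of these elements, and Manf had no window. Members were counted by gene and the whole set by window, with the members included, so the shares are not alike in measure. The genes were chosen for the response these elements serve, so a higher share among them is not a test. A match of letters is a description and not a bound site.

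**Figure D1:**
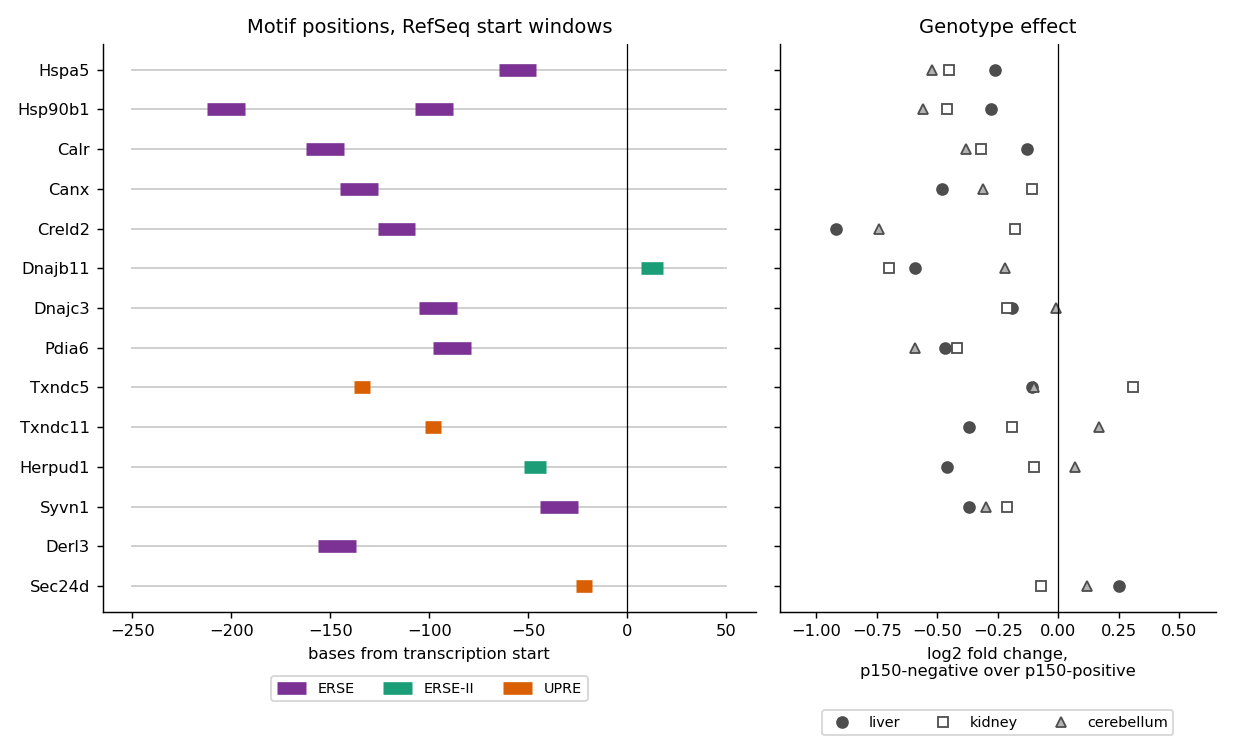
Left, positions of ERSE, ERSE-II and UPRE matches in bases from the RefSeq transcription start (x axis, 0 is the first transcribed base) for the 14 genes that held one; right, the log2 fold change of the same genes, p150-negative over p150-positive, in each tissue. The 8 tested genes with ERSE lie below 0 in all 3 tissues, and Derl3 was too low to be tested. The signs of Dnajc3 in cerebellum (-0.01) and of Dnajc3 and Syvn1 in kidney changed with the processing. Most genes with ERSE are chaperones, so element and role cannot be told apart.

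Among the 8 tested genes with ERSE, all 8 had a log2 fold change (p150-negative over p150-positive) below 0 in each tissue. Their medians were -0.33 in liver, -0.26 in kidney (shallow library of animal 3 included) and -0.45 in cerebellum. Not all these signs were firm. Dnajc3 in cerebellum, at -0.01 ± 0.20, changed sign with DESeq2, with a stricter filter and with no library left out. In kidney, Dnajc3 and Syvn1 changed sign when no library was left out. Tested genes whose window held no ERSE had medians of -0.19, -0.09 and 0.0, and 15 of 19, 13 of 19 and 8 of 17 of them lay below 0. Log2 fold changes below 0 made up 53.4%, 56.3% and 49.6% of all genes tested in these tissues. The split was made with the fold changes known, and most of these fold changes did not pass the test in any tissue. Element and role cannot be told apart here. ERSE stood in 6 of the 9 chaperones with a window and 2 of 6 degradation genes. It stood in 1 of 7 isomerases, 0 of 2 sensors and 0 of 4 transport genes. Of chaperones with a window but no ERSE, Sdf2l1 had -0.71, -0.62 and -0.72 in liver, kidney and cerebellum. Dnajb11 had -0.59, -0.70 and -0.22, and Dnajb9 -0.27, -0.01 and -0.04, in the same order.

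In liver, 4 of the 33 genes that could be tested were lower in p150-negative animals and 0 were higher: Manf, Creld2 and Dnajb11 among the chaperones, and Derl2 among the degradation genes. Of all 9843 genes tested in liver, 4.76% were called lower and 6.94% higher. Calls are at an adjusted p under 0.05 (edgeR's quasi-likelihood test, Benjamini-Hochberg adjustment over all genes of the tissue), which all adjusted p-values below refer to. The 34th gene, Derl3, was too low to be tested. The members' median log2 fold change in liver was -0.23, against -0.04 over all genes, and 27 of 33 lay below 0. At an unadjusted p under 0.05 there were 9 of 33, where 23.3% of all genes were.

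Derl2 (ENSMUSG00000018442, chromosome 11, 71007164 to 71019841, minus strand) encodes derlin-2, a membrane protein through which misfolded proteins leave the ER for degradation. It stood at 70.0, 81.2 and 91.6 CPM (lowest, median and highest) in p150-negative livers, against 121, 140 and 174 CPM in p150-positive livers. The groups did not overlap: the highest p150-negative liver lay below the lowest p150-positive one, which held for 1.65% of all genes tested in liver. The log2 fold change was -0.83 ± 0.15 (SE, n = 7 each; adjusted p = 0.000657). It was the only one of the 33 whose groups did not overlap in liver. Of its close relatives, Derl1 stood at 124, 199 and 256 CPM against 187, 211 and 239 CPM, with a log2 fold change of -0.08 ± 0.15 (adjusted p = 0.827). Derl3 was at 0, 0.792 and 8.22 CPM in p150-negative livers and 1.67, 6.74 and 17.3 CPM in p150-positive livers. Its p150-negative values included 2 libraries at 0 counts, of animals 3 and 16, where 0 counts allow up to 1.19 and 5.64 CPM (3 counts of the library, counting error only).

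**Figure D2:**
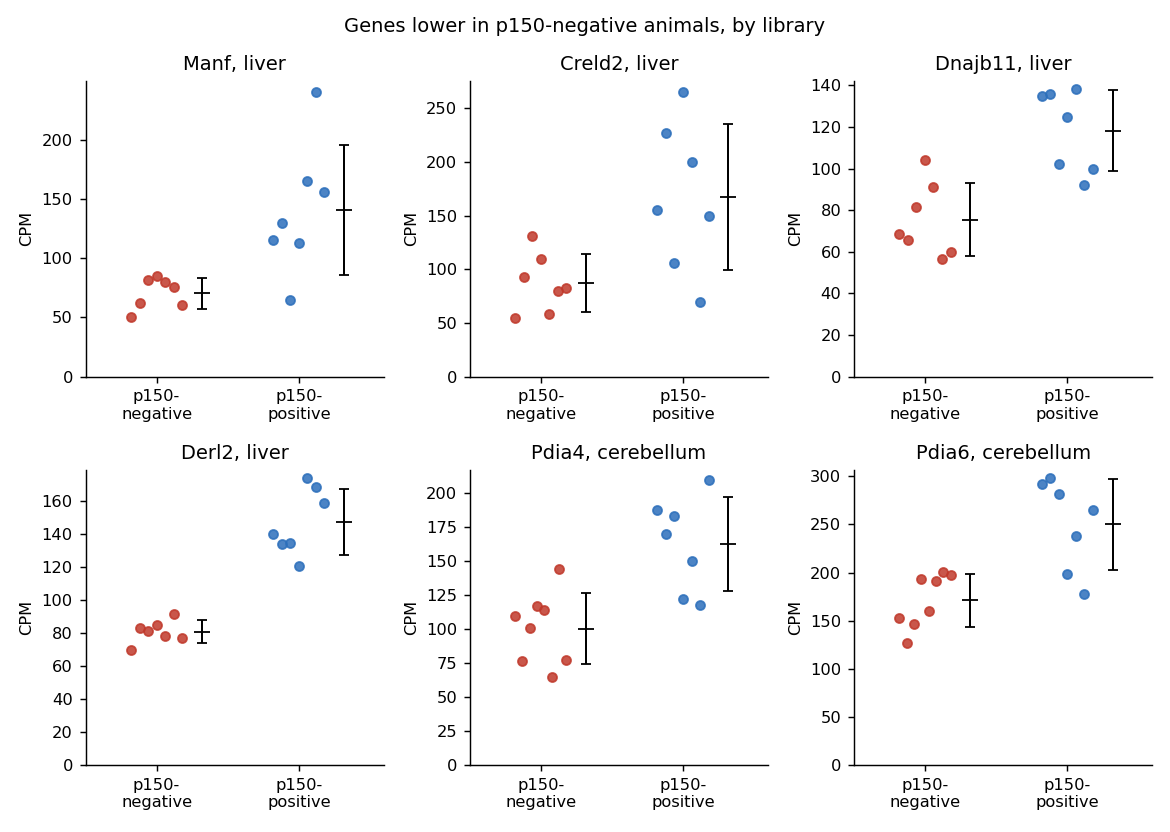
CPM of the 6 genes called lower, in the tissue of the call, 1 point per library (p150-negative left, red; p150-positive right, blue; black bar and whiskers, mean and SD); each vertical axis starts at 0. Only Derl2 shows groups that do not overlap, at 70.0 to 91.6 against 121 to 174 CPM.

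Manf (ENSMUSG00000032575, chromosome 9, 106838312 to 106891979, minus strand) encodes a small secreted protein that is induced by ER stress and binds BiP. It stood at 50.2, 75.5 and 84.6 CPM in p150-negative livers, against 64.7, 130 and 240 CPM in p150-positive livers. All 7 p150-negative livers lay below the p150-positive median, and the p150-positive liver of animal 7 lay among them. Its log2 fold change was -0.98 ± 0.24 (SE, n = 7 each; adjusted p = 0.00846).

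Creld2 (ENSMUSG00000023272, chromosome 15, 88819646 to 88826683, plus strand), an ER-resident, stress-inducible protein with isomerase activity, stood at 54.7, 82.7 and 131 CPM in p150-negative livers, against 69.8, 155 and 265 CPM in p150-positive livers. The lowest p150-positive value, of animal 13, lay within the p150-negative range, as did that of animal 7 at 106 CPM. On the log2 scale Creld2 fell by 0.92 ± 0.25 (SE; adjusted p = 0.017). ERSE stands in its window, printed above.

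Dnajb11 (ENSMUSG00000004460, chromosome 16, 22857845 to 22879634, plus strand) encodes ERdj3, a J-domain partner that hands unfolded proteins to BiP. It stood at 56.7, 68.4 and 104 CPM in p150-negative livers, against 92.2, 125 and 138 CPM in p150-positive livers. Of the 7 p150-negative livers, 6 lay below every p150-positive liver. The log2 fold change was -0.59 ± 0.17 (SE; adjusted p = 0.0282). The call was lost in 7 of 14 fits that left out 1 library, those without p150-negative animal 3, 8 or 14 or p150-positive animal 4, 6, 10 or 12, with a log2 fold change of -0.67 to -0.51 over all 14.

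The other liver chaperones also had values below 0 without passing the test. All 11 chaperones did, with a median of -0.48 and a range of -0.98 to -0.13. BiP (Hspa5) itself stood at 691, 988 and 1390 CPM in p150-negative livers, against 700, 1330 and 1660 CPM in p150-positive livers, with a log2 fold change of -0.26 ± 0.21 (adjusted p = 0.512). The groups overlapped, with 3 of 7 p150-positive livers above every p150-negative one. Hsp90b1 was at 363, 486 and 598 CPM against 490, 571 and 702 CPM, with a log2 fold change of -0.28 ± 0.17 (adjusted p = 0.351). Calnexin (Canx), the membrane lectin that holds young glycoproteins, stood at 246, 324 and 347 CPM against 343, 444 and 550 CPM (-0.48 ± 0.16; adjusted p = 0.0662). Of its 7 p150-negative livers, 6 lay below every p150-positive one. Hyou1, a nucleotide exchange factor of BiP, had -0.67 ± 0.25 (adjusted p = 0.0931), and Sdf2l1, a partner of Dnajb11, -0.71 ± 0.28 (adjusted p = 0.126). Calreticulin (Calr), the soluble relative of calnexin, had the value nearest to 0, -0.13 ± 0.21 (adjusted p = 0.776). Dnajb9, a J-domain protein that represses IRE1, had -0.27 ± 0.28 (unadjusted p = 0.335).

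The liver disulfide isomerases gave 0 calls among 7, with a median log2 fold change of -0.11. Their lowest was Pdia6, an isomerase that works with BiP, at 255, 424 and 490 CPM in p150-negative livers, against 414, 543 and 758 CPM in p150-positive livers (-0.47 ± 0.19; adjusted p = 0.126). The highest was Pdia5, at 69.5, 130 and 146 CPM against 45.5, 106 and 126 CPM (0.42 ± 0.20; adjusted p = 0.204). For Pdia5, 5 of the 7 p150-negative livers lay above every p150-positive liver. P4hb, the founding protein disulfide isomerase and also a subunit of collagen prolyl hydroxylase, had 0.17 ± 0.19, and Pdia4 -0.01 ± 0.25.

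Apart from Derl2, the degradation genes of the liver had no call. Herpud1, which recruits substrates to the HRD1 complex, stood at 320, 414 and 676 CPM in p150-negative livers, against 171, 666 and 995 CPM in p150-positive livers (-0.46 ± 0.28; adjusted p = 0.354). The p150-positive group held both the lowest and the highest library. Edem1, which marks misfolded glycoproteins by mannose trimming, had -0.34 ± 0.20, the ligase gene Syvn1 (HRD1) -0.37 ± 0.29 and its adaptor Sel1l -0.19 ± 0.17. Among the 6 translocation and export genes, values ran from -0.34 for Sec61b, a translocon subunit, to 0.25 for Sec24d, a cargo subunit of the COPII coat, with 0 calls.

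The sensors of the liver had values at or slightly above 0, and none passed the test. Xbp1 had a median of 413 CPM and a highest value of 518 CPM in p150-negative livers, against 386 and 532 CPM in p150-positive livers, with a log2 fold change of 0.20 ± 0.19 (adjusted p = 0.587). Atf6 was at 24.8, 37.6 and 69.8 CPM against 21.6, 35.6 and 53.4 CPM (0.13 ± 0.23; adjusted p = 0.808). Ern1 was read from few counts, at 2.88, 9.76 and 14.7 CPM against 7.73, 8.35 and 17.7 CPM, with a value of -0.00 ± 0.28 (adjusted p = 1.0). For each of the 3 sensors the groups overlapped.

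**Figure D3:**
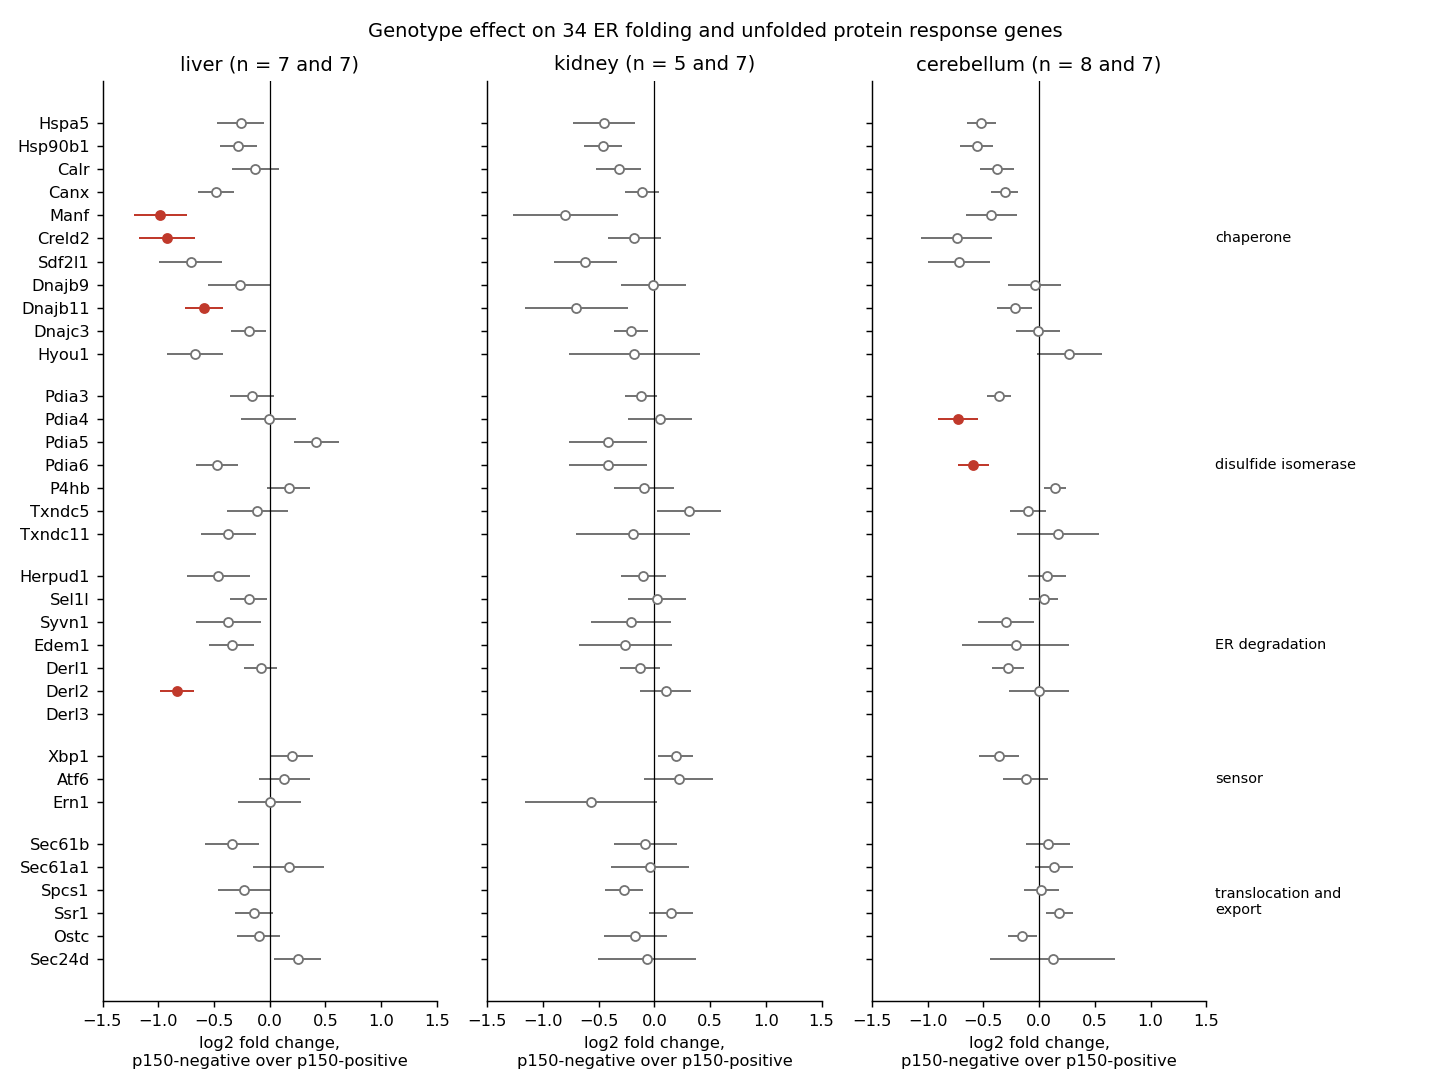
Log2 fold change (p150-negative over p150-positive, x axis) with its SE for each gene by role in liver, kidney and cerebellum; n gives p150-negative and p150-positive libraries, and filled red points are called at an adjusted p under 0.05. Calls are 4 in liver, 0 in kidney and 2 in cerebellum, each below 0, and the 11 chaperones of liver all lie below 0.

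Other cell types moved with the genotype in these livers. The 11 neutrophil markers summed to 443.3, 747.7 and 1687.4 CPM in p150-negative livers, against 27.9, 73.9 and 176.5 CPM in p150-positive livers, with 0 markers absent from either group. The 12 macrophage and monocyte markers summed to 1358.6, 2049.6 and 3147.5 CPM against 418.4, 643.4 and 905.8 CPM. Neither list overlapped between the groups. Plasma cells, whose ER is large, and B cells had marker sums of 187.9 to 434.9 CPM in p150-negative and 149.0 to 458.7 CPM in p150-positive livers, with Tnfrsf17 at 0 in both. The 8 stellate cell and fibroblast markers summed to 397.9, 512.3 and 879.9 CPM against 591.4, 843.3 and 939.5 CPM. The 4 hepatocyte genes (Alb, Apoa1, Serpina1c and Cps1) summed to 34638.8, 42659.2 and 66111.7 CPM against 45865.9, 49767.3 and 66690.4 CPM. The part of these cell types in the liver values was not tested.

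In cerebellum, 2 of the 31 genes tested were lower in p150-negative animals and 0 were higher, and both were disulfide isomerases. Of all 13146 genes tested there, 0.274% were called lower and 0.723% higher. Pdia5, Derl3 and Ern1 were too low to be tested. The members' median log2 fold change was -0.15, against 0.0 over all genes, and 20 of 31 lay below 0. At an unadjusted p under 0.05 there were 9 of 31, where 9.57% of all genes were. The shallow p150-negative cerebellum of animal 11 (0.94 M counts) was the lowest of all cerebella for 11 of the 31 genes and the highest for 6. It gave the lowest values of Pdia4, Hsp90b1, Canx and Derl2, among others. Without it the median was -0.14, against 0.02 over all genes, and 21 of 31 lay below 0.

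Pdia6 (ENSMUSG00000020571, chromosome 12, 17266545 to 17284770, plus strand) stood at 127, 175 and 201 CPM in p150-negative cerebella, against 178, 265 and 298 CPM in p150-positive cerebella. All 8 p150-negative cerebella lay below the p150-positive median, and 4 lay below every p150-positive one. The log2 fold change was -0.59 ± 0.14 (SE, n = 8 and 7; adjusted p = 0.0419).

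Pdia4 (ENSMUSG00000025823, chromosome 6, 47796141 to 47813430, minus strand), known as ERp72, stood at 64.6, 106 and 144 CPM in p150-negative cerebella, against 118, 170 and 210 CPM in p150-positive cerebella. Of the 8 p150-negative cerebella, 7 lay below every p150-positive one, and only that of animal 14 lay above the lowest of them. The log2 fold change was -0.73 ± 0.18 (SE; adjusted p = 0.0492).

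Both calls were close to the threshold. They were lost with limma's voom (adjusted p = 0.0764 for Pdia6 and 0.0723 for Pdia4), with the identifier prefix as a covariate (0.0958 and 0.126) and with Xist as a covariate (0.0627 and 0.0546). Over all alternatives, left-out libraries included, the adjusted p of Pdia6 ran from 0.00482 to 0.111 and that of Pdia4 from 0.00657 to 0.13. Leaving out 1 library ended both calls in 9 of 15 fits, those without p150-negative animal 1, 2, 3 or 9 or p150-positive animal 4, 5, 6, 12 or 15, and that of Pdia4 also without p150-negative animal 8 or 16. The log2 fold changes stayed between -0.67 and -0.54 for Pdia6 and between -0.82 and -0.67 for Pdia4.

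Of the 11 chaperones of the cerebellum, Hspa5 and Hsp90b1 came nearest to the threshold. BiP (Hspa5) stood at 486, 559 and 819 CPM in p150-negative cerebella, against 660, 913 and 1000 CPM in p150-positive cerebella. Of the 8 p150-negative cerebella, 6 lay below every p150-positive one. The log2 fold change was -0.52 ± 0.13 (adjusted p = 0.0765 by edgeR and 0.0177 by DESeq2). Hsp90b1 was at 204, 286 and 383 CPM against 339, 419 and 479 CPM, again with 6 of 8 below every p150-positive cerebellum (-0.56 ± 0.15; adjusted p = 0.0863 by edgeR and 0.0164 by DESeq2). Creld2 had the lowest chaperone value, -0.74 ± 0.32 (adjusted p = 0.448), at 12.1, 31.4 and 49.8 CPM against 25.8, 59.8 and 66.2 CPM. The highest was Hyou1, at 0.27 ± 0.29 (adjusted p = 0.835). Canx stood at 287, 499 and 542 CPM against 526, 557 and 604 CPM (-0.31 ± 0.12; adjusted p = 0.381), and 7 of its 8 p150-negative values lay below every p150-positive one.

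The remaining cerebellar isomerases and the degradation genes had no call. Pdia3 (ERp57), the partner of calnexin and calreticulin, had a lowest value of 211 CPM and a median of 268 CPM in p150-negative cerebella, against 308 and 334 CPM in p150-positive cerebella (-0.36 ± 0.11; adjusted p = 0.191). Only 1 of its 8 p150-negative cerebella reached the p150-positive range. Txndc11 had the highest isomerase value, 0.17 ± 0.37 (adjusted p = 0.932). Derl2 stood at 14.8, 40.9 and 90.6 CPM against 30.8, 44.2 and 58.4 CPM (log2 fold change 0.00 ± 0.27; adjusted p = 0.999), with the p150-negative libraries on both sides of the p150-positive ones. Syvn1 was the lowest of the degradation genes at -0.30 ± 0.25 (adjusted p = 0.77) and Herpud1 the highest at 0.07 ± 0.17 (adjusted p = 0.943).

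The sensors and transport genes of the cerebellum also had no call. Xbp1 stood at 127, 160 and 302 CPM in p150-negative cerebella, against 139, 224 and 275 CPM in p150-positive cerebella (-0.36 ± 0.18; adjusted p = 0.558). Atf6 had -0.12 ± 0.20 (adjusted p = 0.907). Ern1 was at 0, 1.4 and 7.05 CPM against 0.64, 3.04 and 6.41 CPM, and in the library at 0 counts (animal 11) up to 3.18 CPM is allowed. Translocation and export genes ran from -0.15 for Ostc, a subunit of the oligosaccharyltransferase, to 0.18 for Ssr1, a subunit of the translocon-associated complex. The 11 neutrophil markers summed to 39.9 to 380.1 CPM in p150-negative and 26.0 to 100.5 CPM in p150-positive cerebella, and the 12 macrophage markers to 118.9 to 367.0 CPM and 85.6 to 177.5 CPM. Markers of the cerebellum itself summed to 1250.5, 2016.6 and 3066.6 CPM against 1638.3, 2650.1 and 3192.3 CPM. The part of these in the cerebellar values was not tested.

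In kidney, 0 of the 33 genes tested were called in either direction by edgeR, and 0 by DESeq2. Of all 11957 genes tested there, 0.309% were called lower and 0.385% higher. The members' median log2 fold change was -0.17, against -0.07 over all genes, and 26 of 33 lay below 0. At an unadjusted p under 0.05 there were 2, Hsp90b1 and Sdf2l1, where 8.19% of all genes were. Groups without overlap, p150-negative below p150-positive, were found for 0 of the 33 genes in kidney (1.02% of all genes) and 0 of the 31 in cerebellum (0.236%). Hsp90b1 stood at 322, 301, 465, 376 and 500 CPM in p150-negative kidneys (animals 1, 3, 8, 9 and 16), against 437, 493 and 591 CPM (lowest, median and highest) in p150-positive kidneys. The groups overlapped, with 3 of 5 p150-negative kidneys below every p150-positive one (-0.46 ± 0.17; adjusted p = 0.371). Sdf2l1 was at 20.6, 33.4, 42.7, 28.5 and 23.0 CPM in the same order, against 28.5, 40.8 and 53.1 CPM (-0.62 ± 0.28; adjusted p = 0.593).

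The kidney values rested in part on 1 library. The p150-negative kidney of animal 3, with 0.27 M counts, was the lowest of all kidneys for 19 of the 33 genes and held 8 of the 34 genes at 0 counts, where up to 11.1 CPM is allowed. Manf stood at 43.4, 0, 86.5, 62.8 and 79.1 CPM in p150-negative kidneys, against 52.1, 90.2 and 170 CPM in p150-positive kidneys (-0.80 ± 0.47; adjusted p = 0.746), and the 0 is that library. Dnajb11 was at 58.3, 0, 118, 108 and 77.9 CPM against 87.8, 96.6 and 189 CPM (-0.70 ± 0.46; adjusted p = 0.783). Without that library the members' median was -0.12, against 0.02 over all genes, 21 of 33 lay below 0, and the smallest adjusted p was 0.273.

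Derl2, lower in liver, stood at 64.0, 171, 74.9, 71.3 and 78.7 CPM in p150-negative kidneys, against 65.4, 72.0 and 91.8 CPM in p150-positive kidneys (0.10 ± 0.23; adjusted p = 0.981). Apart from animal 3, at 171 CPM from 46 counts, the p150-negative kidneys lay within or just below the p150-positive range. Xbp1 was at 247 to 364 CPM against 192 to 308 CPM (0.19 ± 0.16; adjusted p = 0.884), and all 5 p150-negative kidneys lay above the p150-positive median. Hspa5 had -0.45 ± 0.28, Herpud1 -0.10 ± 0.20, Atf6 0.22 ± 0.31 and Ern1 -0.57 ± 0.59, with adjusted p-values of 0.78, 0.977, 0.961 and 0.929. Without the library of animal 3 the log2 fold change was -0.22 for Hspa5, -0.29 for Herpud1, 0.00 for Atf6 and -0.45 for Ern1. Dnajb9, at -0.01 ± 0.29, had the highest chaperone value, and its sign changed with the processing. The isomerases ran from -0.42 for Pdia5 and Pdia6 to 0.31 for Txndc5, the degradation genes from -0.26 for Edem1 to 0.10 for Derl2, and the transport genes from -0.27 for Spcs1, a signal peptidase subunit, to 0.15 for Ssr1. Without the library of animal 3, Pdia6 had -0.15, Txndc5 0.50, Edem1 -0.02 and Derl2 -0.14, and the degradation genes ran from -0.29 for Herpud1 to 0.16 for Sel1l. The neutrophil markers summed to 126.3 to 245.5 CPM in p150-negative and 9.9 to 85.5 CPM in p150-positive kidneys, and kidney's own markers to 9057.2, 9765.7 and 20240.5 CPM against 10750.7, 12250.3 and 14421.9 CPM. Their part in the kidney values was not tested.

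**Figure D4:**
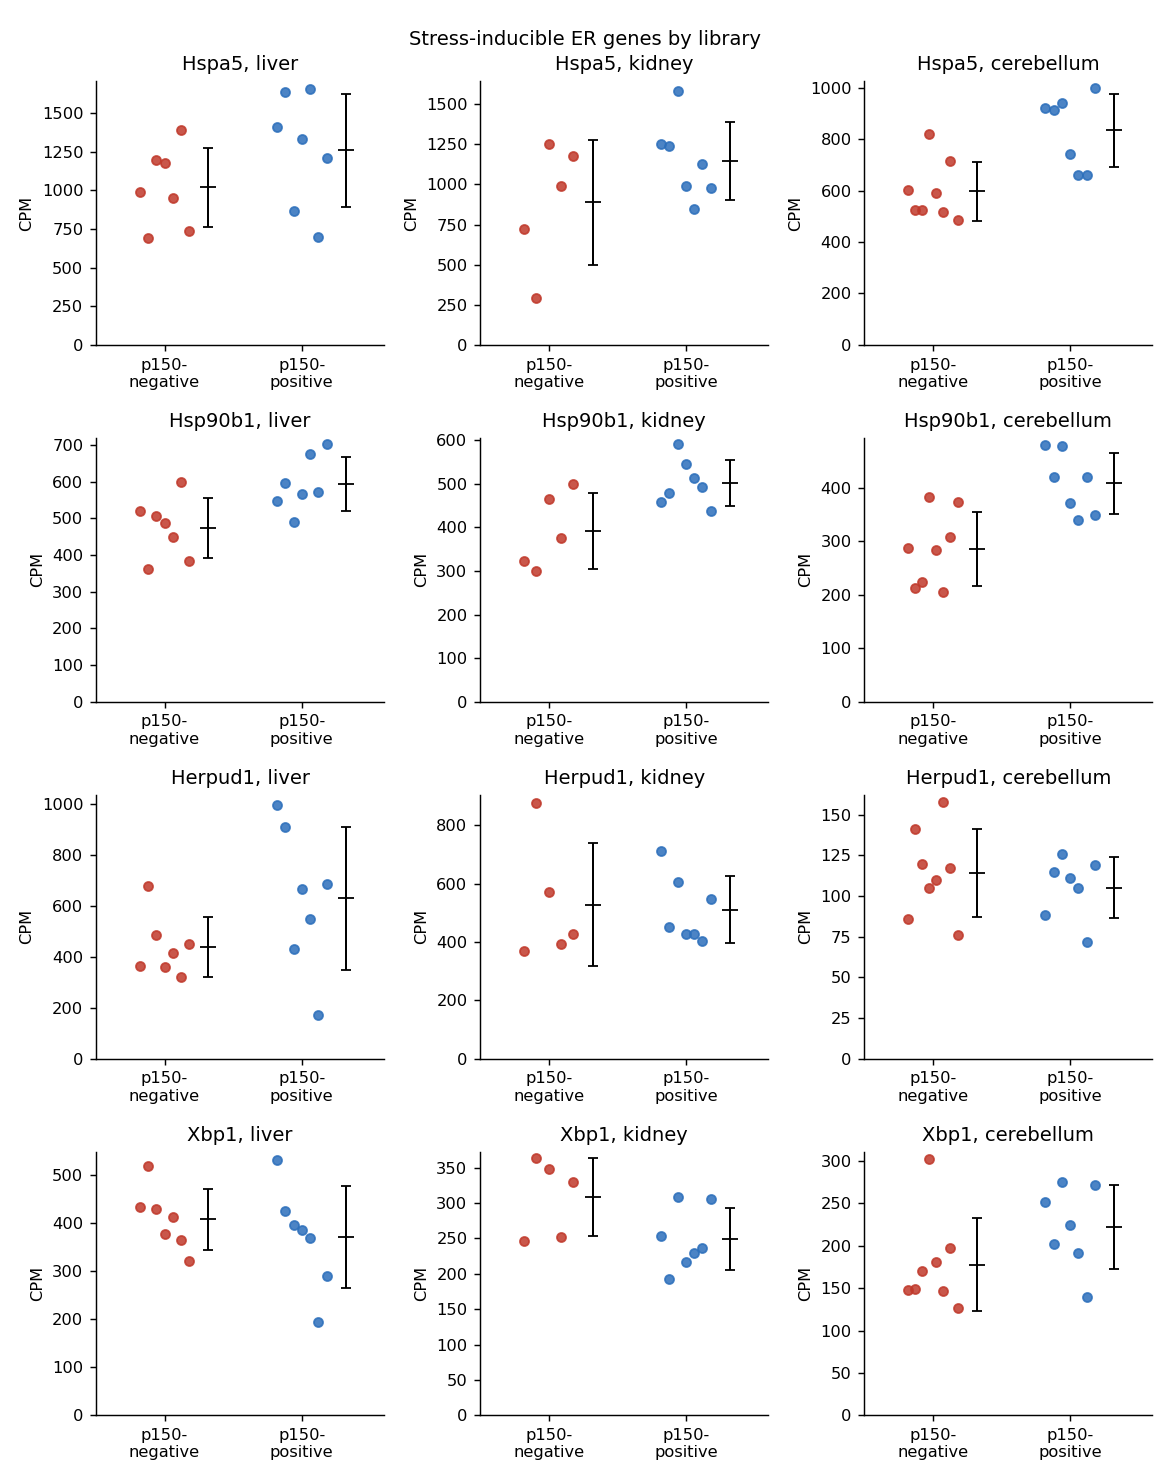
CPM of Hspa5, Hsp90b1, Herpud1 and Xbp1 in each library of liver, kidney and cerebellum (p150-negative left, red; p150-positive right, blue; black bar and whiskers, mean and SD); each vertical axis starts at 0. The genotypes overlap in every panel, least so for Hspa5 and Hsp90b1 in cerebellum, where 6 of 8 p150-negative libraries lie below every p150-positive one.

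Whether the genotype effect differed between tissues was tested for all 34 genes in each pair of tissues, and 0 were called in any pair (smallest adjusted p = 0.0536 for liver minus kidney, 0.17 for liver minus cerebellum and 0.509 for kidney minus cerebellum). Over all genes, 1.5%, 2.67% and 0.114% were called in these pairs. At an unadjusted p under 0.05 there were 3, 3 and 2 of the 34, and the share over all genes at that threshold is not given here. The smallest was Derl2, whose effect in liver minus that in kidney was -0.90 ± 0.24 (SE; adjusted p = 0.0536), and liver minus cerebellum -0.85 ± 0.32 (adjusted p = 0.17). With the animal as a block these were -0.81 (adjusted p = 0.325) and -0.66 (adjusted p = 0.527). Without the shallowest libraries they were -0.72 (adjusted p = 0.0482) and -0.98 (adjusted p = 0.0357), both past the threshold, and leaving out the kidney of animal 3 alone gave -0.71 (adjusted p = 0.0488). Pdia4, lower in cerebellum, had an effect in liver minus that in cerebellum of 0.72 ± 0.33 (adjusted p = 0.293). Manf, lower in liver, had -0.22 ± 0.50 for liver minus kidney (adjusted p = 0.992) and -0.55 ± 0.33 for liver minus cerebellum (adjusted p = 0.479). The calls in liver and in cerebellum were therefore of different genes, but no difference between tissues passed the test with all 41 libraries and TMM scaling.

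Animal identifiers carry the prefixes P094, AC, AA and AS, whose meaning the labels do not give, and each prefix holds both genotypes. Derl2 in liver was lower in the p150-negative animals within each, with mean differences on the log2 scale of -0.83 (P094, 2 and 2 livers), -0.79 (AC, 3 and 3), -0.88 (AA, 1 and 1) and -0.98 (AS, 1 and 1). Manf had -1.11, -0.38, -1.67 and -1.29 and Dnajb11 -1.0, -0.39, -0.7 and -0.65 in the same order. Creld2 had -1.38, -0.91, 0.19 and -0.8. In cerebellum Pdia6 had -1.03 (P094, 3 and 3), -0.26 (AC, 3 and 2), 0.18 (AA, 1 and 1) and -0.43 (AS, 1 and 1), and Pdia4 -0.93, -0.49, 0.29 and -1.45. Those of Creld2, Pdia6 and Pdia4 did not hold in the single AA pair. The p150-positive AA liver, of animal 13, was the lowest of all livers for 11 of the 33 genes and the highest for 4. Without it the members' median log2 fold change in liver was -0.21, against 0.0 over all genes, and 25 of 33 lay below 0. By prefix, the median over members was -0.54, -0.09, 0.07 and -0.44 in liver and -0.24, -0.07, 0.11 and -0.27 in cerebellum. In kidney, where AA had no p150-negative library, it was -0.4 (P094), 0.14 (AC) and 0.1 (AS). All values by prefix are differences of log2 CPM on library totals, without TMM scaling. No median over all genes is given for them, so a shift of whole libraries cannot be told apart.

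Levels between genes were compared per kilobase of exon, as medians over p150-positive libraries. P4hb was the most abundant of the 34 in liver, at 690 CPM per kilobase, followed by Hspa5 at 315 and Herpud1 at 285. In kidney Hspa5 (268) and P4hb (266) came first, and in cerebellum Hspa5 (216) did. Ern1 was the least abundant by this measure in all 3 tissues, at 1.02 in liver, 0.752 in kidney and 0.372 in cerebellum. That order depends on exon length, taken over all annotated exons of a gene. By CPM alone, Derl3 stood below Ern1 in liver (6.74 against 8.35) and kidney (2.35 against 6.15), and Pdia5 did in cerebellum (1.35 against 3.04). The median was highest in liver for 27 of the 34 genes, in kidney for 4 and in cerebellum for 3. Liver to cerebellum ratios of this level were highest for Pdia5 (38.1 against 0.489 CPM per kilobase), Edem1 (27.8 against 1.68) and P4hb (690 against 73.7). Atf6 (3.86, 3.96 and 3.7 in liver, kidney and cerebellum) and Txndc11 (4.0, 4.27 and 3.68) differed least by ratio. Among the abundant chaperones, Hsp90b1 stood at 142, 122 and 104 CPM per kilobase and Canx at 94.6, 118 and 119. CPM depends on what else a tissue transcribes, so these orders describe shares of each library.

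**Figure D5:**
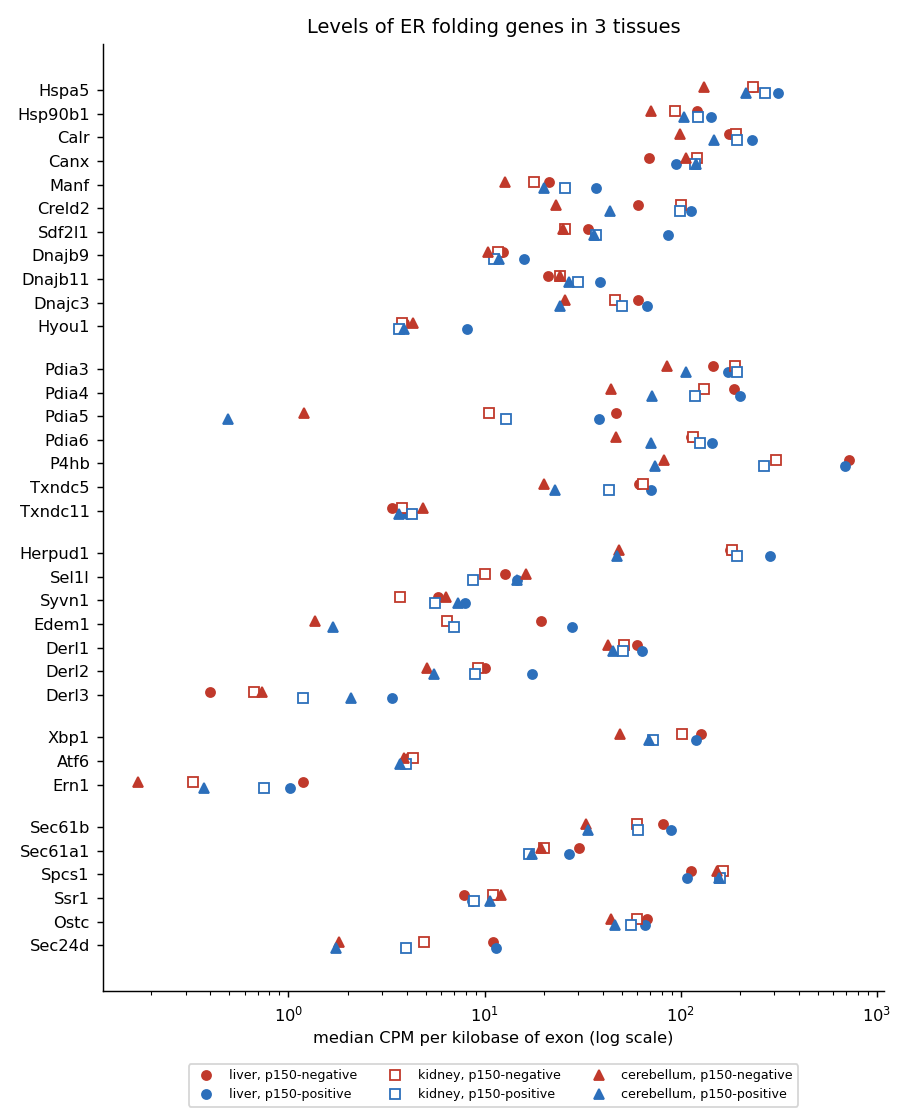
Median level of each gene in CPM per kilobase of exon (x axis, log scale) in liver (circles), kidney (open squares) and cerebellum (triangles) of p150-negative (red) and p150-positive (blue) animals. P4hb spans 690 in liver to 73.7 in cerebellum in p150-positive animals, while Hsp90b1 lies between 104 and 142.

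A wider list of 89 other ER genes was read beside the 34. In liver 84 could be tested, of which 3 passed the test as higher and 3 as lower in p150-negative livers, with a median log2 fold change of -0.17. Neither share was above that of all genes (6.94% higher and 4.76% lower, median -0.04). Of the 84, 58 lay below 0 and 26 above, where 53.4% of all genes lay below. The translocation and glycosylation genes of this list had 20 of 22 below 0, with a median of -0.26 and 0 calls. Its export and retrieval genes had 8 of 16 below 0, with a median of -0.01. Values below 0 were thus not particular to the 34 genes. Among folding factors, Prdx4, a peroxiredoxin that uses ER peroxide to make disulfides, stood at 77.0, 181 and 222 CPM in p150-negative livers, against 217, 350 and 570 CPM in p150-positive livers (-1.16 ± 0.24; adjusted p = 0.00291). Only 1 of its 7 p150-negative livers reached the p150-positive range. The oxidases that recharge disulfide isomerases, Ero1l and Ero1lb, were called in opposite directions. Ero1l stood at 16.9, 38.8 and 50.1 CPM against 15.6, 23.0 and 30.0 CPM (0.79 ± 0.21; adjusted p = 0.0176), and Ero1lb at 19.0, 24.8 and 48.8 CPM against 37.6, 57.2 and 70.6 CPM (-0.98 ± 0.24; adjusted p = 0.00858).

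Sar1b, the small GTPase that starts COPII vesicles and serves lipoprotein export, stood at 187, 219 and 242 CPM in p150-negative livers, against 286, 342 and 379 CPM in p150-positive livers, with no overlap (-0.65 ± 0.15; adjusted p = 0.00547). Among the stress genes of this wider list, Ddit3 was at 3.04, 25.5 and 40.4 CPM against 3.76, 10.3 and 20.0 CPM (1.42 ± 0.42, adjusted p = 0.0322). Of its 7 p150-negative livers, 6 lay above every p150-positive one. Trib3, which CHOP and ATF4 induce, stood at 7.62, 20.7 and 77.6 CPM against 2.7, 7.61 and 9.5 CPM (2.24 ± 0.43; adjusted p = 0.00116). Eif2ak3 and Atf4 themselves were not called, with -0.17 ± 0.30 (adjusted p = 0.8) and 0.42 ± 0.22 (adjusted p = 0.277). What raised Ddit3 and Trib3 was not tested. Adar itself, whose gene counts sum over isoforms, had -0.59 ± 0.34 in liver (adjusted p = 0.318), -0.31 ± 0.50 in kidney (0.973) and 0.44 ± 0.31 in cerebellum (0.723). Of the wider list 0 of 85 were called in kidney and 0 of 83 in cerebellum, with 1 and 6 at an unadjusted p under 0.05, where 8.19% and 9.57% of all genes were.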

How the data were processed

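Counts of reads per gene were deposited by the authors, 1 column per library. Per the submitters' processing notes, the tools were FastQC 0.11.3, STAR 2.4.2a, SAMtools 1.2, HTSeq 0.4.1 and Picard 1.134, on GRCm38 (mm10), and per the labels' protocols, TRIzol RNA was DNase-treated and made into Nextera XT libraries. Strand setting and annotation release are not given in the sources used here, so reads from overlapping or antisense genes cannot be told apart. Of 53471 rows, 6 identifiers stood in duplicate with identical counts and were used once. Entries without a symbol held 0.267% of counts. Gene coordinates and exon lengths are from GENCODE M21 and start windows from RefSeq.

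Each tissue was tested over all its genes with edgeR 4.0.16 in R 4.3.3 (quasi-likelihood test, TMM, filterByExpr with a minimum count of 10 and total of 15), with Benjamini-Hochberg adjustment at 0.05. The log2 fold change divides p150-negative by p150-positive. Its SE comes from the F statistic. Differences between tissues are genotype by tissue interactions. Same-numbered libraries come from the same animal, so the animal was the block of an alternative fit; deviations from group means correlated at -0.012 to 0.18 (liver and kidney), -0.016 to 0.174 (liver and cerebellum) and -0.156 to 0.147 (kidney and cerebellum) within an animal.

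Library totals had a median of 2.95 M counts (M, 1000000), and limits from 0 counts cover counting error only. The columns numbered 4, 5, 20, 31 and 34 were left out. Alternatives were RLE scaling, DESeq2 1.42.0, limma 3.58.1 (voom), no filter, a stricter filter (30 counts), all labelled libraries, no library under 1000000 counts, each library left out in turn, and identifier prefix or Xist as covariate. The scripts were tested on simulated data. Named are called genes, the lowest and highest of each role, 8 members and 4 other genes whatever they showed, and up to 4 genes of each wider list by smallest adjusted p; others named, among them Canx, Derl1, Pdia3 and Sdf2l1, were picked after their values were seen. The 34 genes, the lists and the tests were chosen with earlier results of these data known. Not every gene the rule names is described.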

Additional observations from a re-analysis of the deposited data

Results flagged for a closer look

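Of 84 groups of libraries, examined for the called genes, the 8 genes followed whatever they showed and the summed level of all 34, 5 held a library far from the rest of its group by Dixon's criterion, where chance gives about 1 in 20. All 5 were p150-negative, and 2 came from the shallow kidney of animal 3. There, Derl2 stood at 171 CPM, against 64.0 to 78.7 CPM in the other p150-negative kidneys, and Atf6 at 89.1 CPM against 33.2 to 40.1 CPM. In the cerebellum of animal 8, Manf stood at 98.5 CPM, against 32.9 to 60.3 CPM in the other p150-negative cerebella, and Xbp1 at 302 CPM against 127 to 197 CPM. The same library had the highest stellate cell and fibroblast marker sum of the cerebella used, 1631.8 CPM against at most 651.9 CPM, and the highest macrophage sum, 367.0 CPM, whose part was not tested. In the cerebellum of animal 1, Ern1 stood at 7.05 CPM against 0 to 3.14 CPM.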

How the results depend on the processing

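In liver, Derl2, Manf and Creld2 kept their call under all 9 alternatives and all 14 fits that left out 1 library, and the count of called genes ran from 3 to 5. In cerebellum the count (2) was 4 with DESeq2, which adds Hspa5 and Hsp90b1, 0 with voom, 0 with the identifier prefix, 0 with Xist, and 0 to 3 when 1 library was left out. In kidney it was 0 throughout. Without the libraries under 1000000 counts it was 4 in liver and 2 in cerebellum. For liver minus kidney the count (0) was 1 with RLE scaling and 1 without libraries under 1000000 counts, and 0 to 1 when a p150-negative kidney was left out, an alternative chosen after seeing the data; for liver minus cerebellum it was 1 without the shallow libraries. Each of these is Derl2. With the animal as replicate block, 0 of the 34 genes were called in any pair of tissues, and the calls over all genes were 74 higher and 45 lower for liver minus kidney (110 and 85 without the block), 85 and 111 for liver minus cerebellum (192 and 184), and 2 and 7 for kidney minus cerebellum (9 and 8).

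Of the 33 genes tested in kidney, 7 changed sign without the shallow library (Derl2, Hyou1, Ostc, P4hb, Sec24d, Sec61a1 and Txndc11, at most 0.19 from 0 with it) and 8 over all labelled libraries (at most 0.26). Among the genes followed, kidney Dnajb9 (-0.01) was 0.04 with RLE, 0.04 with DESeq2, 0.08 with voom, 0.01 with the stricter filter and 0.01 with the prefix, and -0.08 to 0.09 when 1 library was left out; kidney Herpud1 (-0.10) was 0.02 over all labelled libraries and -0.29 to 0.01; cerebellar Dnajb9 (-0.04) was 0.03 without the shallow library and -0.15 to 0.04. Leaving out 1 library also gave -0.04 to 0.24 for liver Atf6 (0.13) and -0.02 to 0.14 for cerebellar Herpud1 (0.07). The causes were not tested.

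Counts over all genes, higher and lower, moved most in kidney (46 and 37), to 147 and 159 with DESeq2, 119 and 92 without the shallow library, 15 and 17 with the prefix, 1 and 0 over all labelled libraries, and 91 higher with no filter. Leaving out 1 kidney gave 21 to 119 higher and 13 to 92 lower. Liver (683 and 469) had 441 and 299 over all labelled libraries. Cerebellum (95 and 36) had 175 and 115 with DESeq2, 28 higher with voom, 64 lower without the shallow library and 20 lower with Xist, and 18 to 64 lower when 1 library was left out. Over all labelled libraries the interactions gave 40 and 31 (liver minus kidney), 320 higher (liver minus cerebellum) and 14 and 3 (kidney minus cerebellum), where leaving out the shallow libraries gave 26 and 21 and leaving out 1 kidney 5 to 17 and 3 to 10. Depth limits Ern1 and Derl3, and Pdia5 in cerebellum.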
